A study of Rattus norvegicus with 8 samples.

Results

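The genes of the major histocompatibility complex (MHC), called RT1 in the rat, and of antigen presentation were followed in the ovary of immature rats. The members are the array probes whose gene name begins with RT1- or is B2m, Cd74, Ciita, Tap1, Tap2, Tapbp, Erap1, Psmb8, Psmb9, Psmb10 or Cd1d1. These were 55 of 26214 gene names on the array, read by 67 of 30367 probes; Nlrc5 was not analysed here. Of the 67 probes, 45 stood for class I heavy chains and 7 for class II chains, and 50 mapped to chromosome 20 of the build rn4 with 6 more on its unplaced part.

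Female rats aged 26 days received a subcutaneous injection of 0.2 ml with 50 IU of PMSG (pregnant mare serum gonadotropin, a hormone preparation that drives follicle growth). The vehicle was albumin phosphate buffer. Control rats received vehicle alone, and ovaries of both groups were taken after 48 h, at 28 days of age. Whole-ovary RNA of 4 samples per group was hybridised to 1-colour Agilent arrays with probes of 60 bases. The strain, and whether each sample came from a single animal, is not given in the labels used here; p-values therefore measure the spread between these samples. The groups are called PMSG and control by the sample titles, although the titles went against 3 well-known hormone-responsive genes. In the arrays titled PMSG, the steroid synthesis genes Cyp11a1 and Star were lower, with log2 differences of -3.36 (SE 0.31) and -2.75 (SE 0.54), and Amh, the anti-Müllerian hormone gene of small growing follicles, was higher by 3.03 (SE 0.29). The 3 genes are among 10 listed ovary genes. Insl3, Gdf9 and Zp3 were higher too, by 2.60, 2.05 and 1.94, and Inha, Fshr, Cyp17a1 and Foxl2 had differences from -0.39 to 0.34. Every direction given here follows the titles and would turn if they were exchanged.

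Class I molecules pair a heavy chain with the light chain B2m and show peptides from inside the cell to T and NK cells. Those peptides are cut by proteasomes holding Psmb8, Psmb9 and Psmb10, carried into the endoplasmic reticulum by Tap1 and Tap2, trimmed by Erap1 and loaded with the help of Tapbp. Class II molecules are alpha and beta chain pairs that show peptides from taken-up material to CD4 T cells. They are found mainly on macrophages, dendritic cells and B cells, which also live in the ovary. Class II chains are assembled on Cd74, the invariant chain, and loaded with the help of RT1-DM, which RT1-DO restrains. Ciita is the coactivator that switches class II genes on, through proteins bound to the X and Y boxes of their promoters. RT1 class I genes are numerous and similar, so each probe is described on its own.

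Levels below are log2 signals minus the 75th percentile of the array. A value of 0 is the level of that percentile, and a step of 1 is a 2-fold change. Differences are PMSG minus control. A call is an adjusted p under 0.05 in limma, where p-values of the 25303 tested probes were adjusted together by the Benjamini-Hochberg method. Of the 67 member probes, 60 were well above background on at least 4 of the 8 arrays and were tested. The 75th percentile of the signal ran from 769 to 1103, and 80.8% to 84.6% of all probes on an array were well above background.

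Of the 60 tested member probes, 20 were called, 7 higher and 13 lower in PMSG. This is 33.3% of the tested members, beside 34.2% of all tested probes. The members called higher made up 11.7%, beside 17.6% of all tested probes, and the members called lower 21.7%, beside 16.6%. The count of calls was therefore near the background, and the description rests on which probes were called. The groups did not overlap at 20 of the 60 probes, beside 36.6% of all tested probes. All 4 tested class II chain probes, Cd74 and Ciita were called higher, and 12 of the 42 tested class I heavy chain probes were called lower against 1 higher. The members called fell to 11 without control array 3 and to 12 when either control array 4 or PMSG array 1 was left out; without control array 1 those called lower fell to 8, and without PMSG array 4 those called higher rose to 11. The share of all tested probes called moved as well: it was 29.2% without control array 3, 25.9% without control array 4, 28.1% without PMSG array 1, 27.3% without control array 1 and 45.0% without PMSG array 4. None of the 8 probes of B2m and the peptide supply genes was called. The median log2 difference was 1.49 over the class II chain probes and -0.29 over the class I probes, beside 0.11 over all tested probes.

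**Figure D1:**
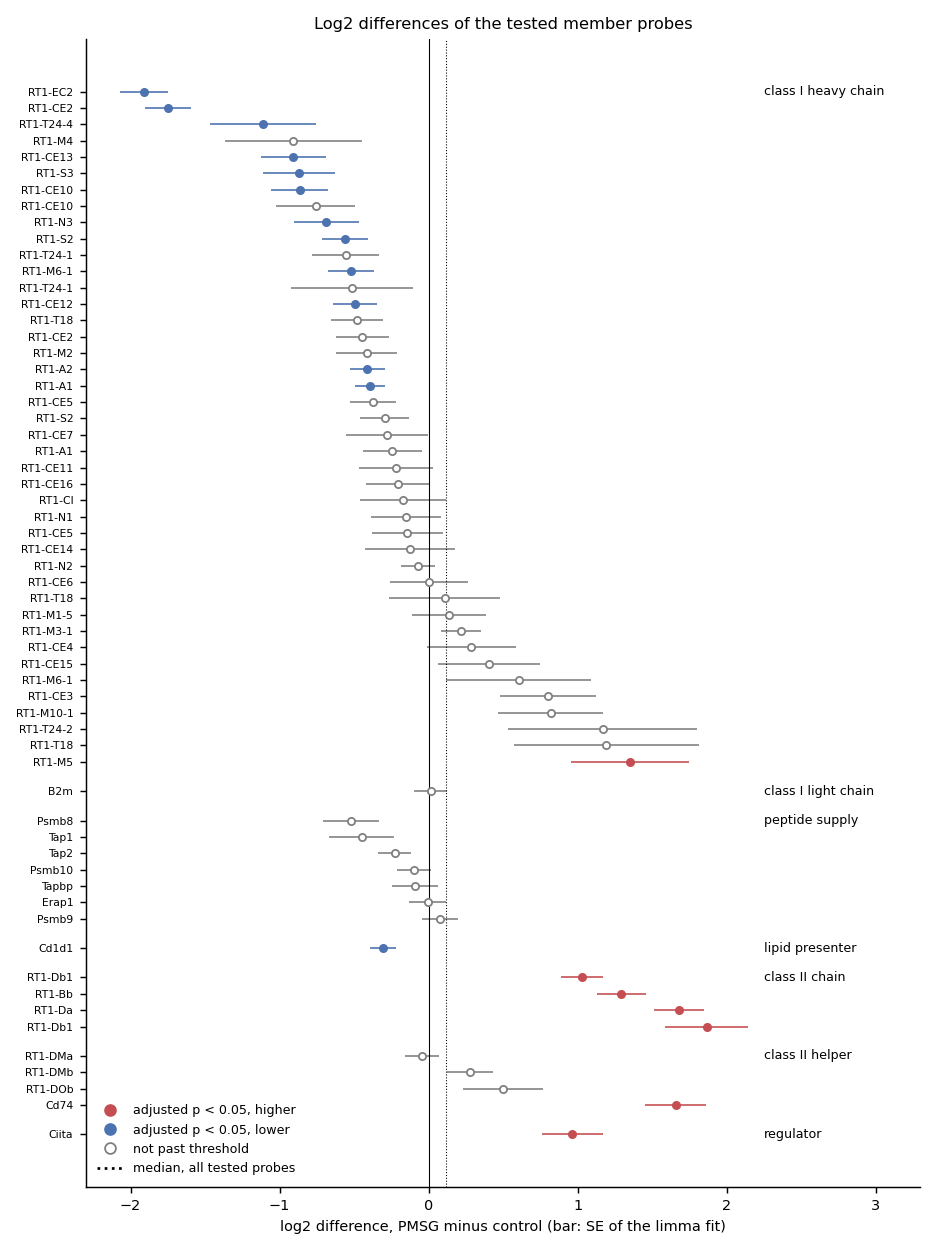
Log2 differences (PMSG minus control) of the 60 tested member probes on the horizontal axis, 1 row per probe, grouped by role; bars are the SE of the limma fit, filled points are calls and the dotted line is the median of all tested probes, 0.11. The class II chains, Cd74 and Ciita lie to the right and most class I probes to the left of that line, while B2m and the peptide supply genes carry open points.

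RT1-Da encodes the alpha chain of the RT1-D class II molecule. Its probe (A_44_P991532, rn4 chr20:4641104-4641163, plus strand) read -0.72, -0.55, -0.86 and -1.23 on control arrays 1 to 4 and 0.80, 0.84, 0.63 and 1.09 on PMSG arrays 1 to 4. Every PMSG array was above every control array. RT1-Da was 3.20-fold higher in PMSG (log2 difference 1.68, SE 0.17, limma adjusted p = 0.000279).

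RT1-Db1, the beta chain that pairs with it, was measured by 2 probes. The first (A_64_P130578, chr20:4672665-4672724, minus strand) read -0.32, -0.29, -0.47 and -0.63 in control and 0.48, 0.36, 0.85 and 0.73 in PMSG. The second (A_64_P134927, chr20:4671516-4671575, minus strand) read -2.11, -2.03, -2.28 and -2.61 in control and -0.78, -0.86, 0.38 and -0.31 in PMSG. At both probes the groups were apart, and control array 4 was the lowest of all arrays. The first differed by 1.03 (SE 0.14, limma adjusted p = 0.00103) and the second by 1.86 (SE 0.28, limma adjusted p = 0.00158), the latter with PMSG array 3 as its highest value. RT1-Db1 was the only member gene with several tested probes, of 9 such genes, at which all probes were called.

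RT1-Bb is the beta chain of the RT1-B molecule. Its brighter probe (A_64_P043911, chr20:4732187-4732246, minus strand) read -1.11, -0.82, -1.08 and -1.31 in control and 0.24, 0.19, -0.14 and 0.55 in PMSG. The groups did not overlap, and the difference was 1.29 (SE 0.17, limma adjusted p = 0.000817), a 2.45-fold higher signal. The brighter RT1-Bb probe and the first RT1-Db1 probe are shown because both were called higher and both stand for class II beta chains.
RT1-Bb: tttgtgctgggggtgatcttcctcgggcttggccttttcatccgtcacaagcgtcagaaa
RT1-Db1: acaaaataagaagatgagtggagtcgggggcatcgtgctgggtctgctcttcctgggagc

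The other RT1-Bb probe (A_44_P552452, chr20:4730533-4730583, minus strand) behaved differently from the first. It was not well above background on any control array, where it read -8.56, -8.48, -8.70 and -8.87, and it was well above background on 2 of 4 PMSG arrays, where it read -7.17, -6.09, -1.15 and -7.89. PMSG array 3 thus stood far above the other 7 arrays. The probe was not tested. With the control arrays set to their detection floor, a mean of -6.50, the PMSG mean of -5.57 was at least 1.89-fold higher. That value was carried by PMSG array 3. PMSG arrays 1 and 4 read below that floor, so the bound is one of group means and not of single arrays. For such bounds the floor of an array is its lowest signal among spots well above background. The probes of RT1-Ha and of RT1-DOa were well above background on 1 PMSG array each and on no control array, so no fold is given. The probe of RT1-Ba, the alpha chain partner of RT1-Bb, was not well above background on any array.

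Cd74, the invariant chain, moved with the chains. Its probe (chr18:56765468-56765527, plus strand) read -0.10, 0.05, -0.26 and -0.69 in control and 1.34, 1.12, 1.34 and 1.85 in PMSG. The groups were well apart, with PMSG array 4 the highest and control array 4 the lowest. The difference of 1.66 (SE 0.20, limma adjusted p = 0.000672) is a 3.16-fold higher signal.

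The other class II helpers were not called. RT1-DMa read -1.24, -1.33, -1.37 and -1.19 in control and -1.31, -1.49, -1.09 and -1.43 in PMSG, a difference of -0.05 (SE 0.11, limma adjusted p = 0.77). Its partner chain RT1-DMb read -1.42, -1.19, -0.94 and -1.18 in control and -0.84, -1.23, -0.64 and -0.91 in PMSG, a difference of 0.28 (SE 0.16, limma adjusted p = 0.198). RT1-DOb, a chain of the RT1-DO molecule, read -3.85, -4.02, -3.88 and -4.01 in control and -2.91, -3.70, -3.01 and -4.16 in PMSG, a difference of 0.50 (SE 0.27, limma adjusted p = 0.181). At all 3 probes the groups overlapped. RT1-DOb was called higher with array weights and without PMSG array 4.

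Ciita, the class II coactivator, was dim but well above background on all 8 arrays. Its probe (chr10:5087176-5087235, minus strand) read -5.99, -6.27, -6.27 and -6.45 in control and -5.05, -5.32, -5.83 and -4.93 in PMSG. The PMSG arrays lay above all control arrays, array 3 by the least. The difference was 0.96 (SE 0.20, limma adjusted p = 0.00777), a 1.95-fold higher signal. The Ciita call was lost under quantile normalization, at a difference of 0.64 (limma adjusted p = 0.131), and the normexp background correction, which kept the call, gave a difference of 0.35.

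**Figure D2:**
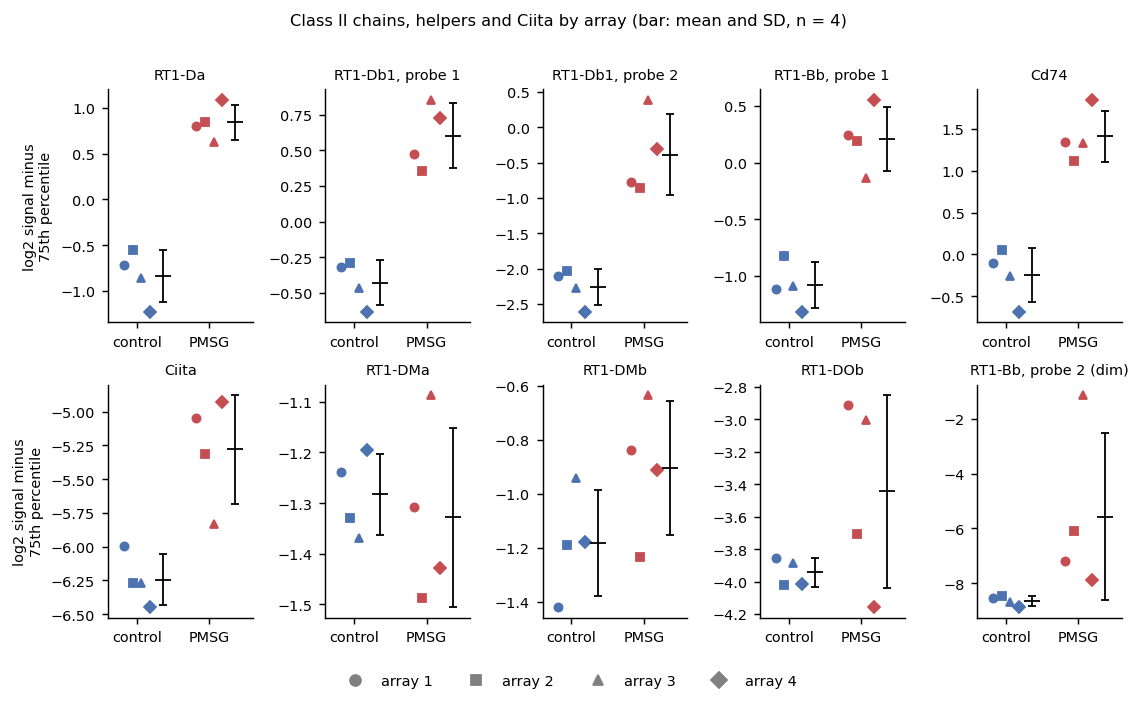
Levels (log2 signal minus the array's 75th percentile, vertical axis, a separate scale in each panel) of the class II chains, their helpers and Ciita in the 4 control and 4 PMSG arrays; each marker shape is 1 array and the bar is the mean and SD (n = 4). The groups do not overlap for RT1-Da, both RT1-Db1 probes, the brighter RT1-Bb probe, Cd74 and Ciita, and overlap for RT1-DMa, RT1-DMb and RT1-DOb; in the dim RT1-Bb panel PMSG array 3 lies at -1.15.

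The class II calls other than that of Ciita held under all 17 alternative settings, among them each array left out in turn, another background correction and other scalings. The difference kept its sign in each of the 2 rows of the slide, which held 2 arrays per group each; for RT1-Da it was 1.63 in row 1 and 1.73 in row 2, and for Cd74 1.55 and 1.77. Chains called higher sat beside helpers that were not called; whether Cd74 differed from the other helpers in its response was not tested.

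The promoters of the called class II chains are printed because these chains moved together and Ciita acts on class II genes through promoter boxes. RefSeq promoters of the build GRCr8, from 250 bases before to 50 bases after the start, were found for 44 member genes. The Y box was searched as CTGATTGG and the 3' part of the X box as ACNGATG, each on both strands; the searches do not overlap. The X box letters were chosen from 7 spellings after their matches in these promoters had been seen. The spelling tried first had 14 letters, was in 0.0717% of promoters, and was held by RT1-Da and RT1-Bb but not by RT1-Db1; 4 of the 7 spellings were held by all of these chains. The Y box letters were in 3.50% of 33469 promoters of that length, the X box letters in 10.2% and both in 0.290%. All 5 class II chain promoters (RT1-Ba, RT1-Bb, RT1-Da, RT1-Db1 and RT1-Ha) held the Y box, between 46 and 115 bases upstream of the start. RT1-Da, RT1-Db1 and RT1-Bb, the chains called higher, also held the X box letters, which began 27, 26 and 26 bases before the Y box. The 150 bases before the start are as follows, with both motifs in capitals.
RT1-Da (chr20:4515265-4515414, plus strand): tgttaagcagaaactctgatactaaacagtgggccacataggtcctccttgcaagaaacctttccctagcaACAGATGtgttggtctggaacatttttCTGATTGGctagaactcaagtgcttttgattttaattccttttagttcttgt
RT1-Db1 (chr20:4560163-4560312, minus strand): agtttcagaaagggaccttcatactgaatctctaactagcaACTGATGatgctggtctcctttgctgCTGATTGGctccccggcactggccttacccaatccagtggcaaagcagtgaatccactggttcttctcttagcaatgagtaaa
RT1-Bb (chr20:4604119-4604268, minus strand): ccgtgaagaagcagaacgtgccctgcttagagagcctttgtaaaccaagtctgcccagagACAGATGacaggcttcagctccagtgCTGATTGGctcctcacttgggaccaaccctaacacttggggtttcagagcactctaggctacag

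The window of Cd74, which was called higher, held neither motif as spelled here. RT1-DMa and RT1-DOb, which were not called, held the X box letters and not the Y box letters. RT1-Ba and RT1-Ha, whose probes were at or near background, and RT1-DOa held the Y box letters and not the X box letters. Among the 27 class I heavy chain promoters, 11 held the Y box letters and 8 the X box letters. Those of RT1-CE16, RT1-CE4, RT1-CE5, RT1-M3-1 and RT1-M10-1 held both. There the X box letters began 54, 54, 54, 55 and 142 bases before the Y box letters. No probe of these class I genes was called, so holding both motifs was not particular to the chains called higher. A match describes the letters of the window only.

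Class I heavy chain probes were called lower more often than higher. Of the 42 tested probes, 30 had a negative and 12 a positive difference; 12 were called lower (28.6% of the class I probes, beside 16.6% of all tested probes), 1 was called higher and 29 were not called. The uncalled probes ranged from -0.91 to 1.19. The 4 brightest class I probes were those of RT1-A1, RT1-S2, RT1-A2 and RT1-CE2. The brighter RT1-A1 probe (A_64_P139202, chr20:5059904-5059963, plus strand), for the classical transplantation antigen of the RT1-A region, read 5.20, 5.07, 5.29 and 5.38 in control and 4.75, 4.92, 4.82 and 4.88 in PMSG. All PMSG arrays were lower, by 0.39 on average (SE 0.10, limma adjusted p = 0.0181), although this call was lost in 3 of 17 alternatives, among them when control array 4 was left out (limma adjusted p = 0.0557) or quantile normalization was used (limma adjusted p = 0.0628).

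RT1-A2, the neighbouring classical class I gene, read 3.35, 3.16, 3.41 and 3.07 in control and 2.78, 3.05, 2.74 and 2.79 in PMSG (chr20:5024199-5024258, plus strand). Its difference was -0.41 (SE 0.12, limma adjusted p = 0.0294), with PMSG array 2 just below the lowest control array. The call was lost in 7 of 17 alternatives, among them quantile normalization (-0.27) and the fits without PMSG array 1 or 3 or control array 1, 2 or 3. The brighter RT1-S2 probe read 3.18, 2.96, 3.14 and 3.49 in control and 2.68, 2.96, 3.25 and 2.70 in PMSG, with overlap and no call (-0.30, SE 0.17, limma adjusted p = 0.201). The dimmer RT1-S2 probe was called lower by 0.56 (SE 0.15, limma adjusted p = 0.0246), a call lost in 4 of 17 alternatives, among them the fits without PMSG array 1 or control array 3 or 4.

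The lowest differences of all members were at RT1-EC2 and at 1 of 2 probes of RT1-CE2, both class I genes of the RT1-C/E region. RT1-EC2 (A_44_P324707, with no coordinate in the files) read 2.08, 1.78, 2.12 and 2.43 in control and 0.16, 0.47, 0.00 and 0.13 in PMSG. The groups were far apart, and RT1-EC2 was 3.77-fold lower in PMSG (-1.91 on the log2 scale, SE 0.16, limma adjusted p = 0.00016). The dimmer RT1-CE2 probe (A_64_P137833, chr20:3577352-3577411, minus strand) read 0.73, 0.47, 0.83 and 1.03 in control and -0.79, -0.84, -1.19 and -1.11 in PMSG. It was 3.36-fold lower (log2 difference -1.75, SE 0.15, limma adjusted p = 0.000182), again with no overlap.

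The brighter RT1-CE2 probe (A_44_P107372, chr20:3577411-3577564, minus strand) lies directly upstream in the same transcript, at base 863 against base 922. It read 3.11, 2.94, 3.28 and 3.39 in control and 2.44, 2.77, 3.17 and 2.56 in PMSG. PMSG array 3 fell among the control arrays, and the difference was -0.44 (SE 0.18, limma adjusted p = 0.089). Both probes of this gene thus had a negative difference, 1.30 apart on the log2 scale. Without PMSG array 3 the brighter probe had a difference of -0.59 and was called (limma adjusted p = 0.0203).

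The sequences of these probes are shown because they were low together in part and overlap in sequence. The called RT1-CE2 probe and the RT1-EC2 probe align over 41 bases, of which 35 are identical, and the called RT1-CE10 probe (A_64_P149196) aligns with the called RT1-CE2 probe over 42 bases, of which 39 are identical. Capitals mark the longest run shared, by the called RT1-CE2 probe and RT1-EC2 with each other, by RT1-CE10 with the called RT1-CE2 probe, and by the brighter RT1-CE2 probe with RT1-EC2.
RT1-CE2, called probe: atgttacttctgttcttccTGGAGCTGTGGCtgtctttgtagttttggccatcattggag
RT1-EC2: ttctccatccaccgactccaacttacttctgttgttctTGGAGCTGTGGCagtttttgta
RT1-CE10: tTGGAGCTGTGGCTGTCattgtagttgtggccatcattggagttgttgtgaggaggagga
RT1-CE2, brighter probe: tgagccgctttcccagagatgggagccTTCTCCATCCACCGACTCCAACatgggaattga

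RT1-CE10, named here after its values were seen, read 1.79, 1.39, 1.90 and 2.23 in control and 0.98, 1.19, 0.67 and 1.01 in PMSG at this probe. The groups did not overlap, and the difference was -0.86 (SE 0.19, limma adjusted p = 0.00948). Sequence overlap did not go with equal differences throughout: the brighter RT1-CE2 probe shares a run of 22 bases with RT1-EC2, yet their differences were 1.47 apart. How far each probe reads its neighbours' transcripts was not tested.

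Other class I probes started at a similar position of their transcript. Among the 17 tested class I probes that start between bases 900 and 970 of their transcript, the 15 other than RT1-EC2 and RT1-CE2 had differences from -0.91 to 1.35, with 2 called lower and 1 called higher. This set goes by position and not by alignment, and it leaves out the called RT1-CE10 probe, at base 1094. The probes of RT1-A1 (dimmer probe) and RT1-CE16 belong to the set and are shown with their shared run of 19 bases in capitals. Neither was called (-0.24, SE 0.20, and -0.21, SE 0.21).
RT1-A1: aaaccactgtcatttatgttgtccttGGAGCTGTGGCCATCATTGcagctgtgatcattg
RT1-CE16: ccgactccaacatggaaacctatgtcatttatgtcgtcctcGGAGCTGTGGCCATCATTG

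Over all members, 45 probe pairs shared a run of at least 14 bases, and both probes of every such pair were class I; 22 of the 45 class I probes were in such a pair. No 2 member probes were identical. The longest shared run, 43 bases, was between RT1-CE5 (chr20:3510942-3511001, minus strand) and the brighter RT1-S2 probe (chr20:2795080-2795139, plus strand), and is in capitals.
RT1-CE5: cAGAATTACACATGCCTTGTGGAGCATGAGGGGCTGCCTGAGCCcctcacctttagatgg
RT1-S2: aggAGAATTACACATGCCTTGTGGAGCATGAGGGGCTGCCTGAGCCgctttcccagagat
These 2 probes differed by -0.37 (SE 0.15) and -0.30 (SE 0.17), neither called. In the 10 pairs with a shared run of at least 20 bases, the differences of the 2 probes lay between 0.05 and 1.47 apart, with a median of 0.15, and 8 pairs lay under 0.5 apart. Pairs share probes, so they are not independent of each other. Gaps of class I pairs without a shared run were not taken. The gaps given here therefore do not show whether shared sequence goes with similar differences.

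RT1-T24-4, a nonclassical class I gene, read 2.63, 2.32, 2.56 and 2.74 in control and 1.93, 1.98, 0.28 and 1.60 in PMSG (chr20:2837688-2837748, plus strand). All PMSG arrays were lower, with array 3 far below the others. The difference was -1.11 (SE 0.36, limma adjusted p = 0.0433); without PMSG array 3 it was -0.72 with a limma adjusted p of 0.00993, and the call was lost in 9 of 17 alternatives, among them the fits without PMSG array 4 or any 1 control array. RT1-CE13, a class I gene of the RT1-C/E region, read 0.79, 0.65, 0.98 and 1.16 in control and 0.06, 0.44, -0.58 and 0.03 in PMSG (on the unplaced part of chromosome 20), with a difference of -0.91 (SE 0.22, limma adjusted p = 0.0136). PMSG array 3 was again the lowest, and no PMSG array reached the control range.

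RT1-M5, a nonclassical class I gene of the RT1-M region, was the only class I probe called higher. It was dim, at -6.23, -6.56, -6.26 and -6.70 in control and -4.20, -5.21, -4.69 and -6.25 in PMSG. PMSG array 4 lay within the control range, and the difference was 1.35 (SE 0.40, limma adjusted p = 0.0306). The call was lost in 9 of 17 alternatives, among them the normexp background correction (0.43), the authors' deposited log2 values (0.51) and the fit without any 1 array other than PMSG array 4. The remaining class I probes called lower, of RT1-S3, RT1-N3, RT1-M6-1 and RT1-CE12, had differences from -0.87 to -0.49, and each lost its call in at least 3 of 17 alternatives.

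Genes with several probes were read differently by them in part. Of the 9 genes with at least 2 tested probes, 4 had the same outcome at all probes and none had calls in both directions. At 2 genes, RT1-M6-1 and RT1-T18, the probes had differences of both signs. The brighter RT1-M6-1 probe, at a mean level of 2.91 over all arrays, was called lower (-0.52, SE 0.15, limma adjusted p = 0.0309). The dimmer one, at a mean level of -6.34 and well above background on 6 arrays, was not called at 0.60 (SE 0.49). The first call was lost in 8 of 17 alternatives, among them quantile normalization and the fits without PMSG array 1 or 3 or control array 1, 3 or 4, and the dimmer probe was called higher without PMSG array 4. The 3 RT1-T18 probes had differences from -0.48 to 1.19, none called. The brightest, at a mean level of 2.08, had the negative difference, and the others were dim, at -5.09 and -5.41. The brighter RT1-M6-1 probe shares a run of 26 bases with the brighter RT1-S2 probe and with the brighter RT1-CE5 probe.

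**Figure D3:**
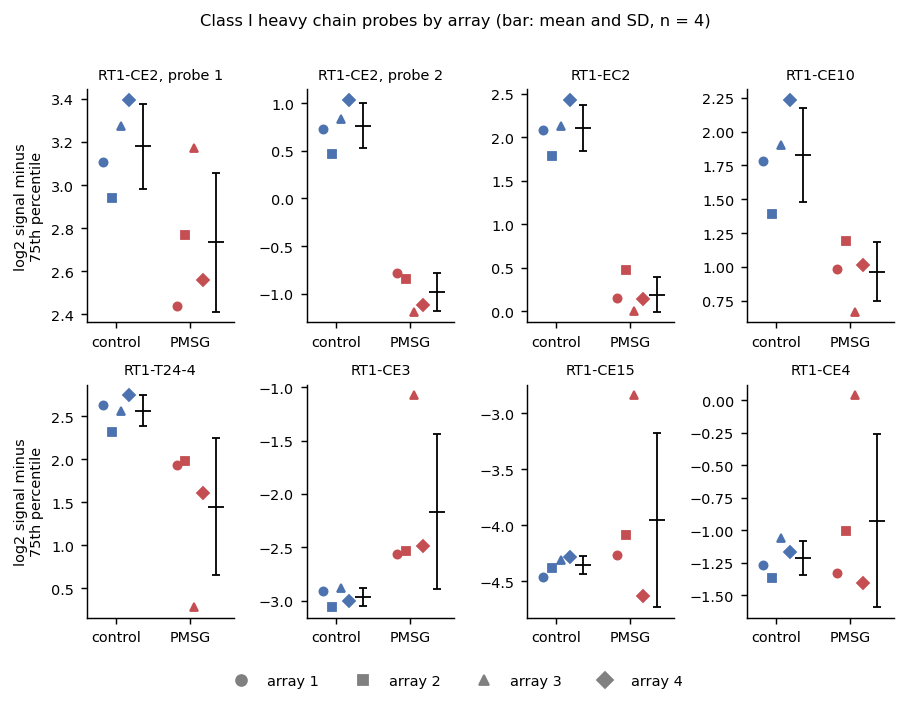
Levels (log2 signal minus the array's 75th percentile, vertical axis, a separate scale in each panel) of 8 class I heavy chain probes in the 4 control and 4 PMSG arrays; each marker shape is 1 array and the bar is the mean and SD (n = 4). The called RT1-CE2 probe and RT1-EC2 separate the groups fully, whereas PMSG array 3 (triangle) stands apart from the other PMSG arrays at RT1-T24-4, RT1-CE3, RT1-CE15 and RT1-CE4.

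PMSG array 3 stood apart at many class I probes, in both directions. At 24 of the 42 tested class I probes (57.1%) it lay over 0.5 on the log2 scale from the mean of the other 3 PMSG arrays, 17 times above and 7 times below, beside 24.9% of all tested probes. On the other 7 arrays this share ran from 7.14% to 28.6% of the class I probes and from 10.0% to 34.6% of all tested probes. The array lay 1.49 above the others at RT1-CE15, 1.45 above at RT1-CE3 and 1.28 above at RT1-CE4, and 1.55 below at RT1-T24-4, 1.03 below at the dimmer RT1-CE10 probe and 0.98 below at the dimmer RT1-CE5 probe. These genes were picked after their values were seen.

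RT1-CE3 read -2.91, -3.06, -2.89 and -3.01 in control and -2.56, -2.54, -1.08 and -2.49 in PMSG, so the groups were apart but the difference of 0.80 (SE 0.32) was not called (limma adjusted p = 0.0895). Without PMSG array 3 it was 0.44 and was called (limma adjusted p = 0.0108). RT1-CE15 and RT1-CE4 had differences of 0.40 and 0.29, and of 0.03 and -0.03 without that array. The median SD among the PMSG arrays was 0.39 over the class I probes and 0.27 over all tested probes; among control arrays these were 0.23 and 0.16.

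Without PMSG array 3, 11 of the 42 class I probes were called, 10 lower and 1 higher, beside 31.3% of all tested probes called in either direction, and all 4 class II chain probes were still called higher. Control arrays also varied: control array 2 lay below the other control arrays at the class I probes, with a median deviation of -0.34, and control array 4 above, with 0.30, beside -0.01 and -0.03 over all tested probes. Leaving out control array 3, control array 4 or PMSG array 1 brought the count of class I probes called lower from 12 to 5, 6 and 6, and leaving out control array 1 brought it to 8, beside 29.2%, 25.9%, 28.1% and 27.3% of all tested probes called in either direction and 34.2% with all arrays. In either direction, the class I probes called went from 13 of 42 (31.0%) to 5, 6, 6 and 8 of 42 in these fits. The number of class I calls thus fell with single arrays left out, in these fits by more in proportion than that of all probes. The calls of RT1-EC2, RT1-CE13, the called RT1-CE2 probe and the called RT1-CE10 probe held under all 17 alternatives. The part of array 3 in the other results was not tested beyond leaving it out.

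**Figure D4:**
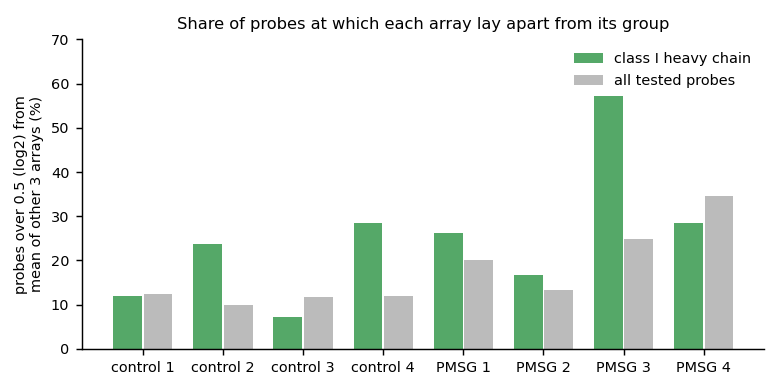
Share of probes (percent, vertical axis) at which each of the 8 arrays (horizontal axis) lay over 0.5 on the log2 scale from the mean of the other 3 arrays of its group, for the 42 tested class I heavy chain probes and for all 25303 tested probes. PMSG array 3 has the highest class I share, 57.1%, beside 24.9% over all tested probes.

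The light chain and the peptide supply genes were not called. B2m (chr3:108932530-108932589, plus strand), which every class I molecule needs, read 4.27, 3.93, 4.27 and 4.06 in control and 4.10, 4.26, 4.17 and 4.06 in PMSG. The groups lay on top of each other, with a difference of 0.01 (SE 0.11, limma adjusted p = 0.932).

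Psmb8, an immunoproteasome subunit, read 1.90, 1.66, 1.72 and 2.46 in control and 1.59, 1.33, 1.49 and 1.24 in PMSG. Its groups did not overlap, control array 4 was the highest, and the difference of -0.52 (SE 0.19) missed the threshold (limma adjusted p = 0.0627). It was called in 2 of 17 alternatives, median centring and the normexp background correction. The partner subunit Psmb9 read 2.76, 2.66, 2.64 and 3.02 in control and 2.89, 2.73, 3.02 and 2.75 in PMSG, with overlap and a difference of 0.08 (SE 0.12, limma adjusted p = 0.637). The subunit Psmb10 read 3.45, 3.27, 3.54 and 3.52 in control and 3.50, 3.23, 3.44 and 3.19 in PMSG, with a difference of -0.10 (SE 0.11, limma adjusted p = 0.508).

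The peptide transporter showed negative differences short of a call. Tap1 read -1.90, -2.11, -1.85 and -1.21 in control and -2.50, -2.35, -1.89 and -2.13 in PMSG, a difference of -0.45 (SE 0.22, limma adjusted p = 0.139). Tap2 read 1.30, 1.29, 1.56 and 1.35 in control and 1.22, 0.96, 1.13 and 1.27 in PMSG, a difference of -0.23 (SE 0.11, limma adjusted p = 0.14). The Tap2 groups did not overlap but came close, and control array 4 was the highest for Tap1 and control array 3 for Tap2.

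Tapbp, or tapasin, read 0.36, 0.23, 0.38 and 0.81 in control and 0.37, 0.43, 0.52 and 0.10 in PMSG, a difference of -0.09 (SE 0.15, limma adjusted p = 0.666). The trimming enzyme Erap1 read 2.34, 2.16, 2.30 and 2.45 in control and 2.55, 2.30, 2.09 and 2.28 in PMSG, a difference of -0.01 (SE 0.12, limma adjusted p = 0.968). Both genes had overlapping groups. Cd1d1, a class I-like molecule that presents lipids to NKT cells (chr2:179011202-179011261, minus strand), read 1.25, 1.09, 1.20 and 1.13 in control and 0.84, 0.94, 0.79 and 0.87 in PMSG. It was lower on all PMSG arrays, with a difference of -0.31 (SE 0.09, limma adjusted p = 0.0271), a call lost in 6 of 17 alternatives, among them the fits without PMSG array 1 or 3 or control array 1, 3 or 4.

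Another 33 genes of the pathway had been listed, among them chaperones, proteases, X and Y box proteins, interferon signalling genes and costimulators. Of the 31 that were tested, each at its brightest probe, 7 were called lower and 1 higher. This is 22.6% lower and 3.23% higher, beside 16.6% and 17.6% of all tested probes. In either direction it is 25.8% beside 34.2%, and the median difference of the 31 genes was -0.13. Cd40, a costimulator of antigen-presenting cells, was called lower (-0.95, SE 0.11, limma adjusted p = 0.000494). So were Calr, or calreticulin, a chaperone of class I assembly (-0.67, SE 0.11, limma adjusted p = 0.00248), and Nfyc, a subunit of the Y box factor NF-Y (-0.58, SE 0.10, limma adjusted p = 0.00242). Fcgrt, the neonatal Fc receptor chain that also pairs with B2m, was called higher (0.83, SE 0.13, limma adjusted p = 0.00206). Rfx5, a subunit of the X box factor, was not called (0.39, SE 0.18, limma adjusted p = 0.137).

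Markers of the cells that carry class II were listed as well. In whole ovary, a change in the number of such cells and a change in RNA per cell cannot be told apart. Of 35 tested leukocyte marker genes, 13 were called higher and 1 lower. This is 37.1% higher and 2.86% lower, beside 17.6% and 16.6% of all tested probes. In either direction it is 40.0% beside 34.2%, and the median difference of the markers was 0.51. By list, 4 of 14 macrophage, 2 of 7 pan-leukocyte, 2 of 7 dendritic cell and 5 of 7 T and NK cell markers were called higher. Of these, the macrophage markers Cd68 and C1qa lost the call in 9 of 17 alternatives each, and their groups overlapped. Cd4 lost it in 5, Klrb1a in 2, and Cd3g and Cd8a in 1 each. The other markers called higher kept the call in all 17. Batf3, a dendritic cell transcription factor, was the marker called lower (-0.52, SE 0.15, limma adjusted p = 0.0281), a call lost in 7 of 17 alternatives, among them the normexp background correction and the fits without PMSG array 1, 2 or 3 or control array 1 or 3.

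Of these genes, the 3 called higher with the largest differences were Cd83, a maturation marker of dendritic cells that also stabilises surface class II (3.17, SE 0.18, limma adjusted p = 3.67e-05), the dendritic cell receptor Clec9a (1.51, SE 0.29, limma adjusted p = 0.00463) and Cd3g, a chain of the T cell receptor complex (1.46, SE 0.36, limma adjusted p = 0.0161). The defining markers Xcr1 of dendritic cells and Cd2 of T cells were not well above background on any array. The summed signal of the macrophage list, in units of the array's 75th percentile, ran from 34.7 to 47.4 in control and from 44.2 to 53.5 in PMSG. That of the pan-leukocyte list ran from 4.99 to 7.71 and from 5.53 to 6.09. Control array 3 was the highest control in both lists. The other control arrays ran from 34.7 to 39.4 and from 4.99 to 5.54. At Cd52, a pan-leukocyte marker, control array 3 read 0.94, beside -0.87, -1.05 and -1.05 on control arrays 1, 2 and 4. The T and NK cell list ran from 0.68 to 0.90 in control and from 1.07 to 2.29 in PMSG, with no overlap. The dendritic cell list ran from 0.42 to 0.57 and from 1.80 to 2.55, and without Cd83 from 0.25 to 0.37 and from 0.29 to 0.42. The part of these cells in the class II differences was not tested.

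Endothelial cells carry class I. Of their 7 markers, 4 were called lower and 1 higher, beside 16.6% and 17.6% of all tested probes. Vwf was the one called higher (0.50, SE 0.11), and Pecam1 (-0.16, SE 0.15) and Cdh5 (0.54, SE 0.28) were not called. The summed signal of the 7 genes was 20.9 to 24.4 in control against 17.0 to 18.5 in PMSG, with no overlap. That sum rests mostly on Kdr, the brightest gene, at a mean level of 4.16 in control and 3.73 in PMSG. The next brightest, Pecam1, was at 1.21 and 1.04, and a sum without Kdr was not taken. The part of endothelial cells in the class I differences was not tested.

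**Figure D5:**
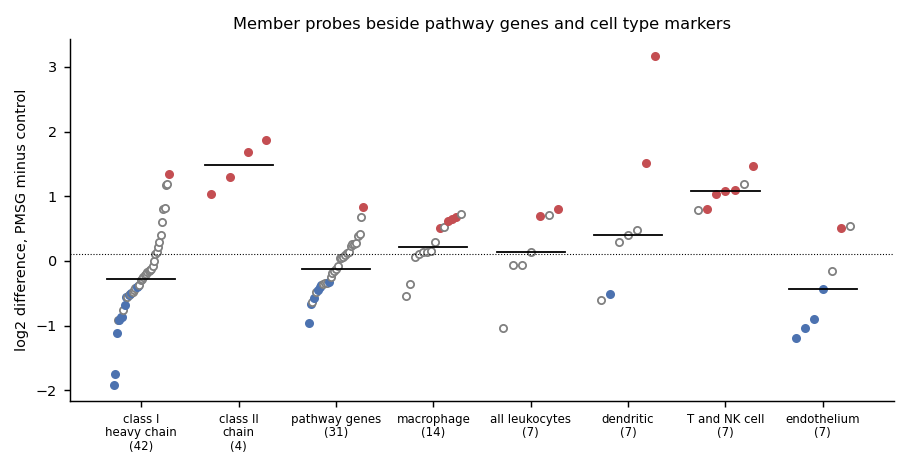
Log2 differences (PMSG minus control, vertical axis) of the tested class I heavy chain and class II chain probes beside other pathway genes and cell type markers, 1 point per probe or gene with the number in brackets; filled points are calls (red higher, blue lower), thick lines are medians and the dotted line is the median of all tested probes, 0.11. The class II chain median of 1.49 lies above that of each marker list, and the class I median of -0.29 lies below 0.

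The scaling moved the reference point of these differences. Subtracting each array's median in place of its 75th percentile shifted the median of all tested probes from 0.11 to -0.05; the calls of all probes then split into 2914 higher and 5534 lower, beside 4452 and 4206. Member calls then split into 7 higher and 18 lower, and the class II chains and Cd74 stayed higher and RT1-EC2 and the called RT1-CE2 probe lower under that scaling and under quantile normalization.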

How the data were processed

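Intensity files of 1-colour scans, with detrended signals and surrogate values for dim spots, were made by the authors in Agilent Feature Extraction (version 11.5.1.1) on the build rn4, per the file headers. A second deposited table holds log2 values; by comparison with the intensity files, each is scaled to its array's 75th percentile. Total RNA (500 ng) was labelled with Cy3 from an oligo-dT primer, per the labels. All 8 arrays lay on 1 slide with 1 scan time. Columns not used numbered 0.

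Here, outlier spots were left out and log2 processed signals averaged per probe, giving 30350 usable probes, and the array's 75th percentile was subtracted. A probe was called above background if at least 0.5 of its spots were, and tested if so on 4 or more of 8 arrays. Groups came from the sample titles. limma 3.58.1 in R 4.3.3 compared them without covariates, with Benjamini-Hochberg adjustment over 25303 probes and a threshold of 0.05. The number of arrays limits the precision. The procedure was tested on simulated data. One of the marker lists is not reported here. Members, gene lists and the naming rule were chosen with earlier results of these data known. The rule named all probes outside class I; of class I probes, the 4 brightest, the 4 called with the largest difference each way and genes called both ways; and of listed genes, the 3 called with the largest difference each way. Gene names are those of the files; 57 of 67 member accessions matched RefSeq, all with the same symbol. Probes at background on 1 group have bounds. Alternatives were quantile normalization, median centring, the normexp correction (offset 50), a stricter background filter and none, the deposited values, array weights, the slide row, a replicate block, each array left out, and the brightest probe per gene.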

Additional observations from a re-analysis of the deposited data

Results flagged for a closer look

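In each tested member probe, the 4 arrays of each group were examined for 1 array far from the other 3. Of 120 groups, 2 stood out by Dixon's test at the 95% level, beside 6 that chance alone would give at 1 in 20.

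RT1-CE3 had PMSG array 3 at -1.08 and the other PMSG arrays between -2.56 and -2.49, a gap of 0.947 of the whole range. RT1-A2 had PMSG array 2 at 3.05 and the others between 2.74 and 2.79, a gap of 0.854 of the range; without that array the RT1-A2 difference was -0.48 (limma adjusted p = 0.0211).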

How the results depend on the processing

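Of the 20 called member probes, 9 kept their call under all 17 alternatives, and no call changed sign. Of the 40 uncalled probes, 13 were called under at least 1 alternative, and 15 changed sign without a call. Using the brightest probe of each gene gave 17 called of 50 genes. The count of member probes called, 20, ran from 11 to 22 with 1 array left out; that of probes called higher, 7, from 6 to 11; and that of probes called lower, 13, from 5 to 12. Pathway genes called, 8, ran from 6 to 12, and leukocyte markers called, 14, from 10 to 18. In the same fits, 25.9% to 45.0% of all tested probes were called, and the highest count of member probes, 22, was at 45.0%. With the replicate block, 6 member probes were called lower and 5 pathway genes differed; the block moved the other 3 counts by less than 1.5 times. Cd3g was not called with the block (limma adjusted p = 0.0543). The replicate numbers did not pair the arrays: deviations of same-numbered arrays from their group means correlated at 0.04, 0.04, 0.18 and -0.02, and 3 of 8 arrays correlated best with their own number. The causes of these changes were not tested, and a fit with 1 array left out also holds fewer arrays. Dim probes such as RT1-M5 are limited by their signal over background.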
